A study of Mus musculus with 16 samples.

Results

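Integrins are the cell-surface receptors, and laminins the basement-membrane proteins, through which adherent cells hold on to their matrix. Their transcripts were examined in RNA precipitated with an antibody against Igf2bp2. The members were all rows of the deposited table whose single gene symbol named an integrin alpha or beta subunit, a protein named for binding an integrin beta subunit, or a laminin alpha, beta or gamma chain. This gave 43 rows for 41 genes, out of 35556 rows and 20170 single-symbol genes. The genes were 9 integrins of leukocytes, 17 integrins of muscle and other adherent cells, the platelet integrin Itga2b, 3 integrin-binding proteins and 11 laminin chains. The rule reads gene names and no measured value, although it was drawn up with earlier results of these data known.

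The cells were HL-1, a line of mouse atrial cardiomyocytes kept in culture, so that the results describe 1 line grown outside tissue and without blood cells. Cells transfected with an siRNA against Airn (siAirn, 10 nM), a long non-coding RNA of the Igf2r locus, were set against cells transfected with a scrambled siRNA (siScr, 10 nM). From each, RNA was precipitated with anti-Igf2bp2 or with control IgG and hybridised to arrays, with 4 biological replicates in each of the 4 groups (16 arrays). The antibody comparison asked which transcripts Igf2bp2, a protein that binds mRNAs and affects their stability and translation, carries, and the siRNA comparison asked whether this depends on Airn.

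Each value below is the log2 difference, anti-Igf2bp2 minus IgG precipitate, in the authors' deposited table, and a transcript with a positive value gave the higher array value with anti-Igf2bp2. The ± beside it is a standard error (SE) worked back from that difference and its p. Values of single arrays were not analysed here, so neither the level of a transcript in these cells nor the spread of the replicates can be shown, and the HL-1 label could not be checked against marker levels. A row was called at an adjusted p under 0.05, the Benjamini-Hochberg adjustment running over all rows. As each array measured RNA precipitated from a whole culture, binding in fewer cells and less binding per cell cannot be told apart.

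An integrin is a pair of an alpha and a beta subunit, and the pairing sets its ligand. Itgb2 and Itgb7 pair with alpha subunits made chiefly by blood leukocytes, while Itgb1 and Itgav pair with many subunits in adherent cells and bind laminin, collagen, fibronectin or vitronectin. In cardiac and skeletal muscle, Itga7 paired with Itgb1 is a main laminin receptor beside dystroglycan. A laminin is a trimer of 1 alpha, 1 beta and 1 gamma chain, and muscle basement membrane is rich in trimers with Lama2.

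The adherent-cell integrins lay mostly above 0 and the leukocyte integrins mostly below 0, and few members of either class passed the test on their own. In siAirn cells, none of the 41 genes was called in the authors' deposited table. In siScr cells, 7 were called higher and 5 lower. The background for siAirn cells was 0.63% of all rows called higher and 0.425% called lower, or 0.813% and 0.169% of single-symbol genes. For siScr cells it was 20.4% of all rows called higher and 16.8% called lower, or 25.5% and 17.2% of single-symbol genes. The members' shares in siScr cells, 17.1% higher and 12.2% lower, were below those of single-symbol genes. At an unadjusted p under 0.05, the authors' deposited table held 3 of the 41 genes in siAirn cells (7.32%, against 37.2% of single-symbol genes) and 21 in siScr cells (51.2%, against 58.2%). The members' share was thus well below the background in siAirn cells and near it in siScr cells, a difference that was not tested.

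**Figure D1:**
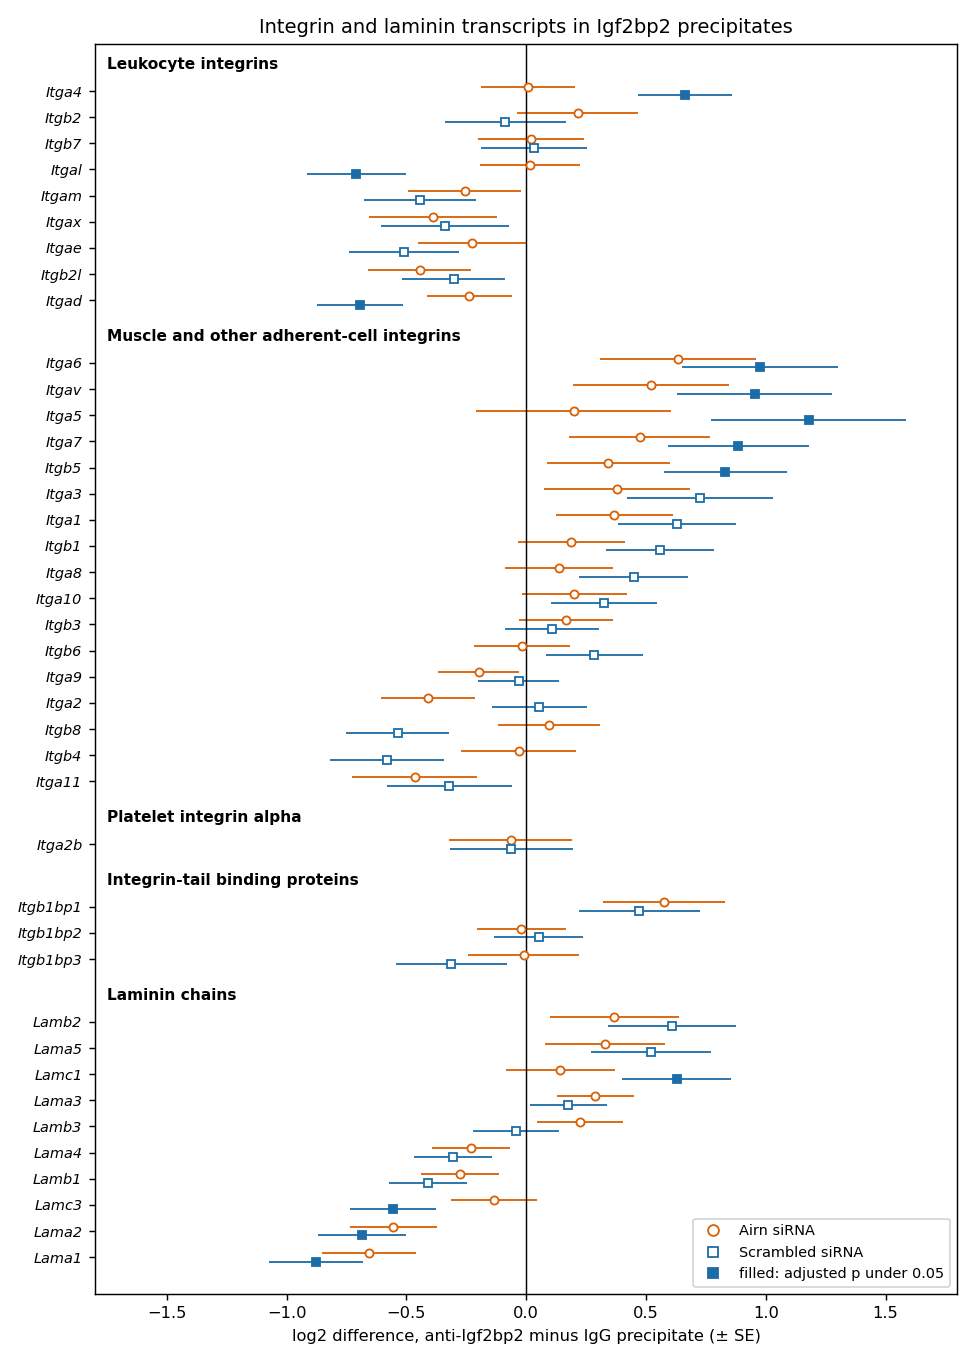
Log2 difference, anti-Igf2bp2 minus IgG, (x axis, ± recovered SE) for 40 of the 41 genes (y axis), in siAirn cells as circles and the scrambled siRNA as squares, filled at an adjusted p under 0.05. No circle is filled, and 12 squares are: 5 adherent-cell integrins, 3 leukocyte integrins and 4 laminin chains.

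Among the leukocyte integrins, the calls in siScr cells went both ways. Of the 9 genes, 2 were called lower (22.2%) and 1 higher (11.1%). The shares of single-symbol genes were 17.2% and 25.5%, and the difference was not tested. Itgal, the alpha subunit of the lymphocyte receptor LFA-1, stood at 0.02 ± 0.21 in siAirn cells (adjusted p = 0.957) and at -0.71 ± 0.21 in siScr cells (1.64-fold lower, adjusted p = 0.0207) in the authors' deposited table. Itgad, an alpha subunit of macrophages, stood at -0.24 ± 0.18 (adjusted p = 0.326) and -0.69 ± 0.18 (1.62-fold lower, adjusted p = 0.0145) in siAirn and siScr cells in the authors' deposited table. Both were called lower in siScr cells and not in siAirn cells, and the difference between the siRNAs did not pass the adjusted test for either. Itga4, which pairs with Itgb1 or Itgb7 and is made by leukocytes and also by some mesenchymal cells, was the exception in direction. Its own row stood at 0.01 ± 0.20 in siAirn cells (adjusted p = 0.978) and was called higher in siScr cells (0.66 ± 0.20, adjusted p = 0.0219, a fold of 1.58, in the authors' deposited table).

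The other leukocyte integrins were not called with either siRNA. Itgam, the alpha subunit of the complement receptor of myeloid cells, stood at -0.26 in siAirn cells and -0.44 in siScr cells in the authors' deposited table, where adjusted p was 0.412 and 0.131. Itgax, a subunit typical of dendritic cells, stood at -0.39 and -0.34 with the same siRNAs (adjusted p = 0.284 and 0.299), and Itgae, the partner of Itgb7 in intraepithelial lymphocytes, at -0.23 and -0.51 (adjusted p = 0.458 and 0.0828), in the authors' deposited table. These alpha subunits were all below 0 with both siRNAs, without passing the test. The beta subunits that they pair with lay near 0: the authors' deposited table gave Itgb2 0.21 and -0.09, and Itgb7 0.02 and 0.03, in siAirn and siScr cells. Itgb2l, a relative of Itgb2, stood at -0.45 in siAirn cells and at -0.30 in siScr cells in the authors' deposited table, where adjusted p was 0.158 and 0.251.

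The adherent-cell integrins had 5 of 17 members called higher in siScr cells, none lower, and none called in siAirn cells. A share of 29.4% called higher was close to the 25.5% of single-symbol genes. Itga5, the alpha subunit of the fibronectin receptor, stood at 0.20 ± 0.41 in siAirn cells (adjusted p = 0.719), against 1.18 ± 0.41 in siScr cells (2.27-fold higher, adjusted p = 0.0356), in the authors' deposited table. The siScr value was the largest of all 41 genes. Its SE was also the largest among the 41 genes. Itga6, a laminin-binding subunit of epithelia and other cells, stood at 0.63 ± 0.32 in siAirn cells (adjusted p = 0.175) and at 0.975 ± 0.32 in siScr cells (1.97-fold higher, adjusted p = 0.0316) in the authors' deposited table. For Itgav, which binds vitronectin and other ligands with an RGD sequence, the authors' deposited table gave 0.52 ± 0.32 (adjusted p = 0.244) in siAirn cells and 0.95 ± 0.32 (1.94-fold higher, adjusted p = 0.0342) in siScr cells.

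Itga7, the laminin-binding subunit of muscle, stood at 0.47 ± 0.29 in siAirn cells (adjusted p = 0.243) and was called higher in siScr cells (0.89 ± 0.29, adjusted p = 0.0314, a fold of 1.85, in the authors' deposited table). Itgb5, a partner of Itgav, stood at 0.34 ± 0.26 (adjusted p = 0.321) and 0.83 ± 0.26 (1.78-fold higher, adjusted p = 0.0246) in siAirn and siScr cells in the authors' deposited table. All 5 of these transcripts kept a positive value in siAirn cells, and each was smaller in them. They were picked by their calls in siScr cells, which by itself favours smaller values in siAirn cells. Values were also nearer 0 in siAirn cells for 68.8% of single-symbol genes. The collagen-binding Itga1 (0.37 in siAirn cells and 0.63 in siScr cells, adjusted p = 0.273 and 0.0535) and the laminin-binding Itga3 (0.38 and 0.72, adjusted p = 0.354 and 0.0683) lay just outside the threshold in the authors' deposited table.

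Itgb1, the beta subunit that most adherent-cell alpha subunits pair with, was represented by rows of opposite sign. Its more precise row stood at 0.19 ± 0.22 in siAirn cells and 0.56 ± 0.22 in siScr cells (adjusted p = 0.527 and 0.0589), and its other row at -0.44 ± 0.24 and -0.60 ± 0.24 (adjusted p = 0.197 and 0.0562), in the authors' deposited table. Averaged over siAirn and siScr cells, the more precise row had 0.37 (adjusted p = 0.0537) and the other -0.52 (adjusted p = 0.0177), so that the direction for Itgb1 is uncertain. Identifiers in the table mostly follow the chromosomes strand by strand: of 14825 pairs of adjacent named rows, 90.6% lay on the same strand of the same chromosome in the RefSeq annotation of GRCm38.p6. Of the 5 named rows before the more precise Itgb1 row, 5 lay on the strand of Itgb1. Of the 10 named rows on both sides of it, 5 lay on that strand and 5 on the opposite strand. Of the 5 before the other row, 0 lay on the strand of Itgb1, and 4 lay on the opposite strand of the same chromosome. Of the 10 on both sides of the other row, 0 and 4 did. Which strand the probes of either row read was not tested.

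The remaining adherent-cell integrins were not called and spread to both sides of 0. Itga8 (0.14 and 0.45), Itga10 (0.20 and 0.32), a collagen receptor of cartilage, and Itgb3 (0.17 and 0.11), which pairs with Itgav or the platelet Itga2b, were above 0 in siAirn and siScr cells in the authors' deposited table. Itga9 (-0.20 and -0.03) and the collagen-binding Itga11 (-0.465 and -0.32) were below 0 in both conditions in the authors' deposited table. The sign differed between the siRNAs for Itgb6 (-0.02 and 0.28), Itga2 (-0.41 and 0.05) and Itgb8 (0.10 and -0.54, adjusted p = 0.744 and 0.0576) in the authors' deposited table. Itgb4, the hemidesmosome subunit of epithelia, stood at -0.03 and -0.58 (adjusted p = 0.924 and 0.0629), and Itga2b at -0.07 and -0.06, in the authors' deposited table.

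The classes were then set side by side by their medians, without a test, since genes are not replicates and the rows share arrays. In siAirn cells, the median was -0.23 over the 9 leukocyte integrins and 0.19 over the 17 adherent-cell integrins, a gap of -0.41, in the authors' deposited table. In siScr cells, the medians from the authors' deposited table were -0.34 and 0.45, a gap of -0.79. Single-symbol genes as a whole had medians of 0.01 in siAirn cells and -0.05 in siScr cells. The classes overlapped: in siScr cells, 8 of 9 leukocyte integrins lay below the adherent-cell median, and 2 of 17 adherent-cell integrins below the leukocyte median. In siAirn cells, 5 of 9 leukocyte integrins lay below 0, against 5 of 17 adherent-cell integrins and 49.6% of single-symbol genes. In siScr cells, 7 of 9 leukocyte integrins lay below 0, against 4 of 17 adherent-cell integrins and 51.5% of single-symbol genes. Every leukocyte integrin other than Itga4 was thus at or below 0.03 in siScr cells.

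RefSeq promoter windows, 250 bases before to 50 after the gene's start on GRCm38.p6, were available for 26 of the 41 genes. The windows of 3 members called in siScr cells, 1 from each of 3 classes and chosen among those with a window, are shown so that a subunit shared by leukocytes and other cells, a fibronectin receptor subunit and the muscle laminin chain can be compared. Capitals mark GAGGAA, the core read by the myeloid and lymphoid factor PU.1, and GGGCGG, the GC box, on either strand. They are the windows of Itga4 (chr2:79255176-79255475, plus strand), Itga5 (chr15:103366742-103367041, minus strand) and Lama2 (chr10:27616893-27617192, minus strand).
Itga4: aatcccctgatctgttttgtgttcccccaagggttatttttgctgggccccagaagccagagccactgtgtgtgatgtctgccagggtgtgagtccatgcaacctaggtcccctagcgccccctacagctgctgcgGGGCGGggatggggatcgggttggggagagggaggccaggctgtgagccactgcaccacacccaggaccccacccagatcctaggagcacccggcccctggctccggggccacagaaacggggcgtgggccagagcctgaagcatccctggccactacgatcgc
Itga5: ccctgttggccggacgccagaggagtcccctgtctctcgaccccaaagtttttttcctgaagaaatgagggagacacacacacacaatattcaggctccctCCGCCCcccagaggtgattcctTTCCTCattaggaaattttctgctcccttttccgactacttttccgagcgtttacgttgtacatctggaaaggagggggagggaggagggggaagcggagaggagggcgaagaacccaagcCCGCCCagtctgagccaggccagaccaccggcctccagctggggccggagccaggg
Lama2: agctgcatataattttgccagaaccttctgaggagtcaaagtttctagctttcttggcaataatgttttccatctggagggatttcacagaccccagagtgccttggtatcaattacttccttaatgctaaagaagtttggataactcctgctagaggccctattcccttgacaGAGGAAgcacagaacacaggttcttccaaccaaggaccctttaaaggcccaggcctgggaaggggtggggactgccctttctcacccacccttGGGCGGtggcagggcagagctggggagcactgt

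GAGGAA on either strand was present in 3 of 5 leukocyte integrin windows, 4 of 13 adherent-cell integrin windows and 5 of 5 laminin windows, against 28.3% of the first windows of 27025 genes. GGGCGG was present in 2 of 5 leukocyte integrin windows, 6 of 13 adherent-cell integrin windows and 3 of 5 laminin windows, against 35.9% of all. The number of CG dinucleotides had a median of 5 in leukocyte integrin windows (range 2 to 10), 13 in adherent-cell integrin windows (6 to 27) and 4 in laminin windows (1 to 24), against 7 over all genes. The Itga4 window printed above held 10, the highest of its class, the Itga5 window 13 and the Lama2 window 1. These are properties of the reference sequence, and precipitation was not tested against them.

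Proteins that bind integrin tails were not called. Itgb1bp1, an adaptor of the Itgb1 tail, stood at 0.575 ± 0.25 in siAirn cells and 0.47 ± 0.25 in siScr cells (adjusted p = 0.134 and 0.137) in the authors' deposited table. Itgb1bp2, the muscle protein melusin, lay at -0.02 and 0.05, and Itgb1bp3 (now Nmrk2, a nicotinamide riboside kinase of muscle) at -0.01 and -0.31, in siAirn and siScr cells in the authors' deposited table. Melusin, known from heart muscle, was among the members nearest 0 with both siRNAs.

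The laminin chains went both ways, and the same chains had the lowest values with both siRNAs. In siScr cells, the authors' deposited table called 3 of 11 lower and 1 higher. These shares were 27.3% lower and 9.09% higher, against 17.2% and 25.5% of single-symbol genes, a difference that was not tested. Lama1, the alpha chain of early embryonic basement membranes, had the lowest values of all 41 genes, at -0.655 ± 0.20 in siAirn cells (1.57-fold, adjusted p = 0.0739) and -0.88 ± 0.20 in siScr cells (1.84-fold lower, adjusted p = 0.0100) in the authors' deposited table. Lama2, the alpha chain of muscle laminin, followed at -0.555 ± 0.18 (adjusted p = 0.0847) and -0.685 ± 0.18 (1.61-fold lower, adjusted p = 0.0158) in siAirn and siScr cells in the authors' deposited table. Both alpha chains were the members with the smallest adjusted p in siAirn cells, though neither passed. Lamc3 had -0.135 ± 0.18 in siAirn cells (adjusted p = 0.571) and was called lower in siScr cells (-0.555 ± 0.18, adjusted p = 0.0285) in the authors' deposited table.

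Lamc1, the gamma chain of most laminins, was the laminin called higher, with 0.14 ± 0.23 in siAirn cells (adjusted p = 0.640), against 0.63 ± 0.23 in siScr cells (1.55-fold higher, adjusted p = 0.0418), in the authors' deposited table. Its usual partner Lamb1 lay on the other side, at -0.28 ± 0.16 in siAirn cells (adjusted p = 0.220) and -0.41 ± 0.16 in siScr cells (adjusted p = 0.0565) in the authors' deposited table. Lamb2, the beta chain of neuromuscular junctions and of some muscle and kidney membranes, stood at 0.37 and 0.61 (adjusted p = 0.313 and 0.0795) in the authors' deposited table. Lama3 and Lamb3, chains made chiefly by epithelia, were not called: the authors' deposited table gave Lama3 0.29 and 0.18, and Lamb3 0.22 and -0.04, in siAirn and siScr cells. Lama5, common in adult epithelial and vascular membranes, stood at 0.33 and 0.52 and Lama4, an alpha chain of vessels and muscle, at -0.23 and -0.31 in the authors' deposited table, in siAirn and siScr cells.

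Over the 11 laminin chains, the median was 0.14 in siAirn cells and -0.04 in siScr cells in the authors' deposited table. Chains of 1 trimer did not always share a direction: for Lama2, Lamb1 and Lamc1, the scrambled-siRNA values were -0.685, -0.41 and 0.63 in the authors' deposited table. Another set of 1 alpha, 1 beta and 1 gamma chain, Lama5, Lamb2 and Lamc1, lay above 0 throughout. Its scrambled-siRNA values were 0.52, 0.61 and 0.63 in the authors' deposited table. Of 11 chains, 10 had the same sign with both siRNAs.

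Averaging both siRNAs narrows the SE, and more members passed. The average takes the errors of the siRNA comparisons as independent, which was not tested on array values. The test of change makes the same assumption, and 3.43% of all rows had an unadjusted p under 0.05 in it. That share is smaller than independent errors and no change would give, and the reason was not tested. The average called 58.2% of all rows, 29.2% higher and 29% lower, or 35.8% and 30% of single-symbol genes. Of the 41 members it called 12 higher and 6 lower, which is 29.3% and 14.6%. Among those called higher were Itga6 (0.80 ± 0.23, adjusted p = 0.0100), Itgav (0.74), Itga7 (0.68), Itgb5 (0.59), Itga3 (0.55) and Itga1 (0.50) among the adherent-cell integrins. Itga4 (0.335, adjusted p = 0.0486), Itgb1bp1 (0.52), Lamb2 (0.49), Lama5 (0.43, adjusted p = 0.04995) and Lamc1 (0.39, adjusted p = 0.0498) were also called higher in the average. Lower were Lama1 (-0.77 ± 0.14, adjusted p = 0.00179), Lama2 (-0.62 ± 0.13, adjusted p = 0.00277), Itgad (-0.465), Itgb2l (-0.37), Lamc3 (-0.345) and Lamb1 (-0.34). Itga5 (0.69 ± 0.29, adjusted p = 0.0502), the largest in siScr cells, and Itgal (-0.35 ± 0.15, adjusted p = 0.0520) lay just outside. With an assumed correlation of 0.3 between the errors, 11 members passed in place of 18, and Itga4, Lamb2, Lama5 and Lamc1 were among those that did not.

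Rows that name a member beside another gene were left out by the choice of single symbols. There were 5, and apart from the row of Itgb3bp each had a sign opposite to the member's own row in siScr cells. The row shared by Cerkl and Itga4 stood at -0.78 in siAirn cells (adjusted p = 0.0576) and -0.97 in siScr cells (adjusted p = 0.00787) in the authors' deposited table, while the row of Itga4 alone was called higher in siScr cells. The row shared by Asap2 and Itgb1bp1 stood at -0.14 and -0.47 (adjusted p = 0.498 and 0.0314), against positive values for Itgb1bp1 alone, in the authors' deposited table. Itgb4 shared a row with Galk1 (-0.02 in siAirn cells and 0.37 in siScr cells, adjusted p = 0.934 and 0.0665) and another with B230344G16Rik (-0.10 and 0.05) in the authors' deposited table, where its own row was -0.58 in siScr cells, and none of these was called. The row shared by Itgb3bp, which has no row of its own among the members, with Pgm2 was not called. Itgad had a further row of its own, which stood at -0.19 in siAirn cells and 0.17 in siScr cells in the authors' deposited table, neither called. Its siScr value thus had the opposite sign to that of the more precise Itgad row.

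The effect of the Airn siRNA was tested as the difference between the enrichment in siAirn cells and that in siScr cells. No member passed the recovered t test (0 of 41, background 0% of 35546 rows, adjusted p from 0.998 for the members with the smallest p). At an unadjusted p under 0.05 there were 2 members, 4.88% of them, against 3.43% of all rows. Both were leukocyte integrins and both stood near 0 in siAirn cells. Itgal differed by 0.73 ± 0.29 (95% interval 0.11 to 1.35, unadjusted p = 0.0246 in the recovered test), and Itga4 by -0.65 ± 0.28 (95% interval -1.24 to -0.07, unadjusted p = 0.0315 in the recovered test). Itgad differed by 0.46 ± 0.25, with an interval that held 0 (-0.08 to 0.99, unadjusted p = 0.0905 in the recovered test). Itga5 had the largest difference in size, -0.98 ± 0.58, with an interval of -2.20 to 0.24. For the laminins with the lowest values the intervals were -0.36 to 0.81 for Lama1 and -0.42 to 0.68 for Lama2.

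**Figure D2:**
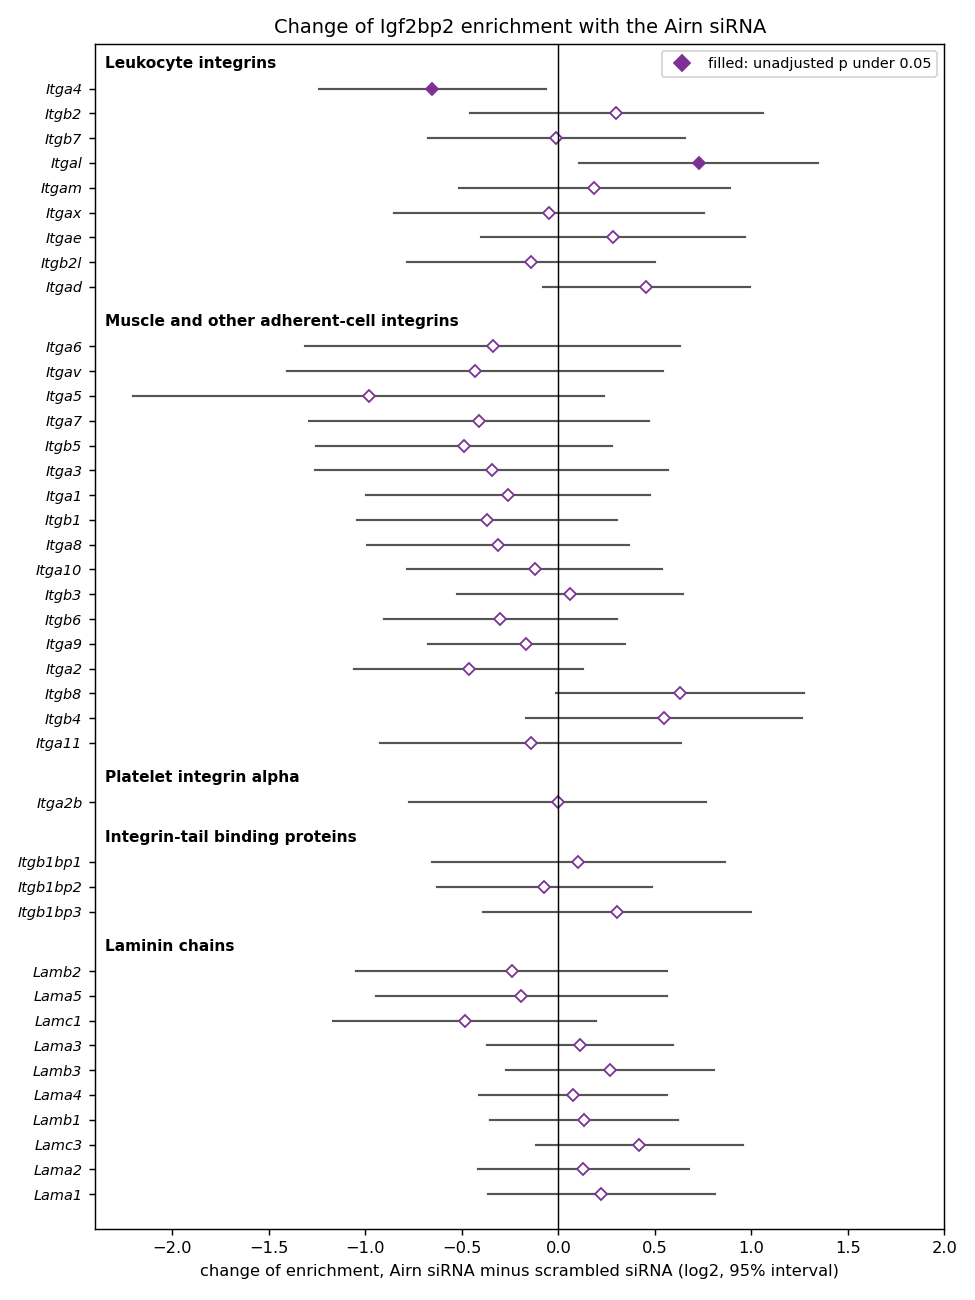
Change of enrichment, the Airn-siRNA log2 difference minus the scrambled-siRNA one (x axis), with its 95% interval for 40 of the 41 genes (y axis). Filled diamonds mark an unadjusted p under 0.05, which Itga4 and Itgal reached in opposite directions.

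Within the classes, 14 of 17 adherent-cell integrins had a lower value in siAirn cells (median change -0.31), as did 4 of 9 leukocyte integrins (median change 0.19) and 4 of 11 laminin chains (median change 0.11). Over all single-symbol genes 51.2% had a lower value in siAirn cells. Values were nearer 0 in siAirn cells for 30 of 41 members (73.2%), against 68.8% of single-symbol genes. The sign was the same with both siRNAs for 34 of 41 members (82.9%), against 91.7% of single-symbol genes. Across the 41 members, Pearson's r between the siRNAs was 0.78 and Spearman's rho 0.775 in the authors' deposited table. The points are genes measured on the same arrays, and the comparisons share no arrays.

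**Figure D3:**
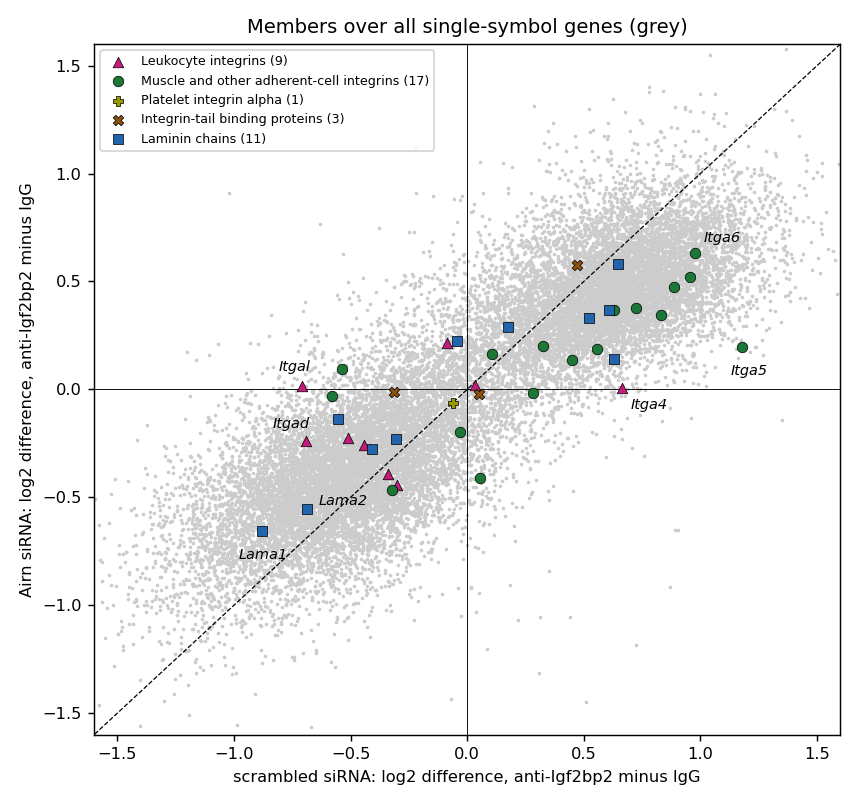
Log2 difference, anti-Igf2bp2 minus IgG, in siScr cells (x axis) and the Airn siRNA (y axis) for the members by class, over all single-symbol genes in grey (points beyond ±1.6 are not drawn). Most adherent-cell integrins lie right of 0 and below the dashed line of equal values, and Itgal and Itga4 lie on the horizontal line at 0.

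Genes that work with integrins and laminins were described in the same way. Focal adhesion proteins, which link integrin tails to actin, had 12 of 22 members called higher and 1 lower in siScr cells in the authors' deposited table, with medians of 0.40 in siAirn cells and 0.55 in siScr cells. The largest averages were those of the adaptors Nedd9 (0.88) and Crk (0.78), the kinase Csk (0.83), which inhibits Src, and, on the lower side, Fermt1 (-0.82), the kindlin of epithelia. Dystroglycan-complex genes and other laminin receptors had 13 of 23 called higher and none lower in siScr cells in the authors' deposited table, with medians of 0.51 in siAirn cells and 0.59 in siScr cells. Among their largest averages were those of Large (0.92) and Pomt1 (0.79), which build the laminin-binding sugar of dystroglycan, and of the sarcoglycan Sgcb (0.79). Their shares called higher stood above the 25.5% of single-symbol genes and that of the 41 members below it, a difference that was not tested.

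Basement-membrane partners and RGD ligands had 2 of 18 called higher and 2 lower in siScr cells in the authors' deposited table, led in the average by Spp1 (0.59), Fras1 (0.56), Sparc (0.52) and, lower, Tnc (-0.59). Of single-symbol genes, 25.5% were called higher and 17.2% lower in siScr cells. Partners and signalling proteins of leukocyte integrins had 5 of 17 called lower and 1 higher in siScr cells in the authors' deposited table, with medians of -0.37 in siAirn cells and -0.44 in siScr cells. Their largest averages were those of Vav1 (-0.79), Lcp2 (-0.70), Fgr (-0.67) and Apbb1ip (-0.65), an adaptor of talin in blood cells that was called lower in siAirn cells as well (-0.72, adjusted p = 0.0499, in the authors' deposited table).

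Leukocyte markers also lay mostly below 0, 18 of 21 with each siRNA, against 49.6% (siAirn) and 51.5% (siScr) of single-symbol genes. None was called in siAirn cells, and 6 were called lower and 2 higher (the macrophage protein Cd68 and the actin bundler Lcp1) in siScr cells, in the authors' deposited table. The medians were -0.38 in siAirn cells and -0.47 in siScr cells. The shares of single-symbol genes called in siScr cells were 25.5% higher and 17.2% lower. Cd68 and Lcp1 were named after their values were seen. The largest averages were those of the lysozyme Lyz2 (-1.02), the neutrophil protein S100a8 (-0.83), the lymphocyte antigen Cd52 (-0.77) and the B-cell receptor subunit Cd79a (-0.73). Cardiomyocyte markers had 2 of 17 called higher in siAirn cells and 9 in siScr cells, none lower, in the authors' deposited table, and their medians were 0.52 and 0.56. Of single-symbol genes, 0.813% were called higher in siAirn cells. The largest averages of cardiomyocyte markers were those of the troponin Tnnc1 (1.08), the gap-junction protein Gja1 (1.03), phospholamban (Pln, 0.82) and the atrial myosin light chain Myl4 (0.75). With both siRNAs, 14 of these 17 markers lay above 0 and Sln, Myh7 and Gja5 below. Sln was called lower in the average (-0.45, adjusted p = 0.0265). Markers of endothelium, fibroblasts and smooth muscle had 4 of 19 called higher and 4 lower in siScr cells in the authors' deposited table. The medians of these markers were -0.11 in siAirn cells and -0.14 in siScr cells. Their largest averages were those of the smooth muscle proteins Cnn1 (0.90), Tagln (0.76) and Acta2 (0.75) and, lower, the fibroblast receptor Pdgfra (-0.735). The smooth muscle marker Myh11 went the other way and was called lower in siScr cells (-0.54, adjusted p = 0.0447, in the authors' deposited table). Myh11 was named after its values were seen. The part of transcript level in these values was not tested, because the table gives differences and no levels.

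**Figure D4:**
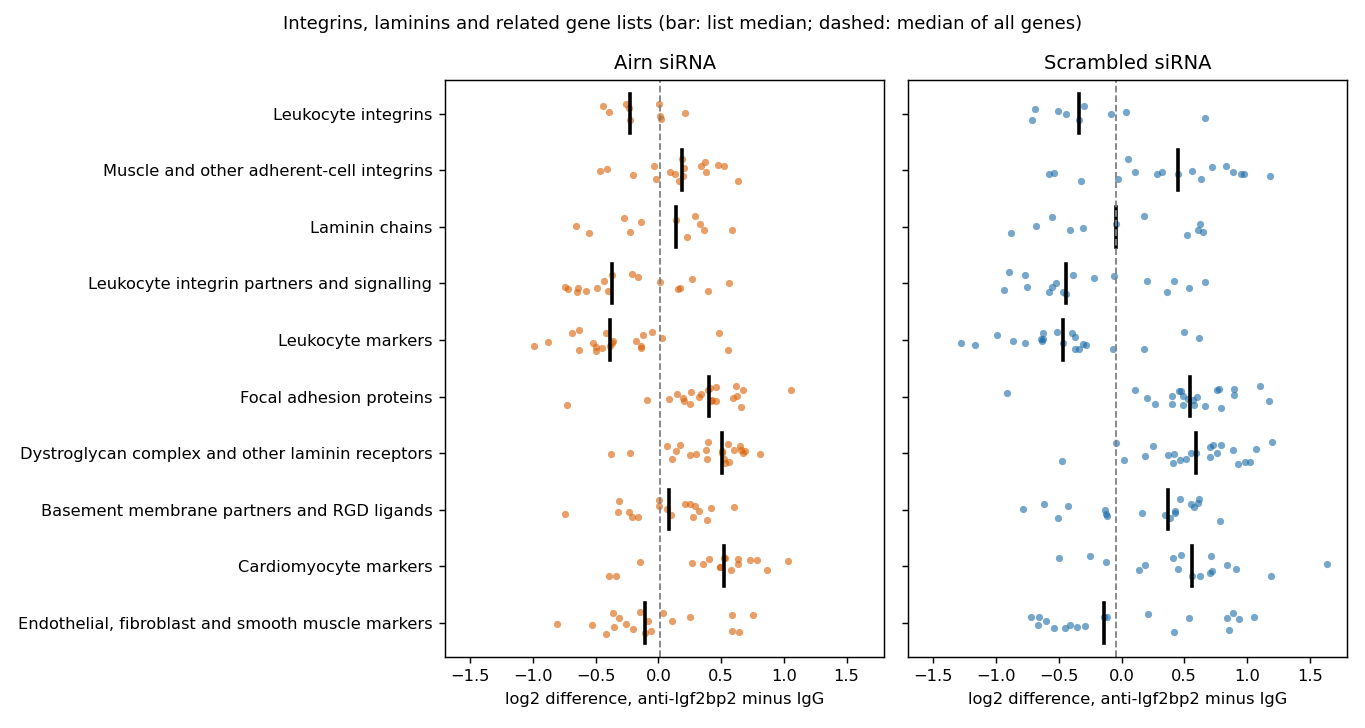
Log2 difference, anti-Igf2bp2 minus IgG, (x axis) for each gene of 10 lists (y axis), in siAirn cells on the left and the scrambled siRNA on the right; bars are list medians and the dashed line is the median of all single-symbol genes. The lists of leukocyte genes have medians below 0, and focal adhesion, dystroglycan and cardiomyocyte lists above 0, with both siRNAs.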

How the data were processed

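The 16 arrays of HL-1 cells formed 4 groups of 4, by antibody and siRNA, from the labels. The arrays were of Affymetrix make and took biotin-labelled cRNA, per the labels' protocols. The authors' deposited table held, per the file headers, 35556 rows with a log2 difference, a p-value and an adjusted p-value for each siRNA; that the scale is log2 follows common use and was not tested. The sources used here do not give the software, normalization or statistical model.

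A linear model of the arrays, as planned, needs array values, which the table lacks. Instead the SE was worked back from each deposited difference and its p, as both comparisons gave the same SE (median disagreement 0.0704% over 29802 rows) at 16.1 degrees of freedom; 10 rows gave none. The change and the average of enrichment were tested against that t distribution, taking errors as independent, with Benjamini-Hochberg adjustment over all rows. The recovery was tested on simulated arrays drawn with independent errors (limma 3.58.1, R 4.3.3). That simulation could not check whether the errors of the deposited comparisons were independent. Other steps used Python 3.11.15 and SciPy 1.17.1. Each gene counts by its most precise row. Members called in a deposited comparison or in the average, every leukocyte integrin and the 4 largest averages of each related list were named. Results of some genes that this rule names are not reported here. The members and lists were chosen with earlier results of these data known. Of 41 member symbols, 40 are current in RefSeq. The number of arrays limits the precision.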

Additional observations from a re-analysis of the deposited data

How the results depend on the processing

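No paired analysis was possible because the table holds comparisons, and for the same reason leaving out replicates was not run. The count of called members depended on centring and on the threshold. Centred on the median of all rows, 12 members in place of 7 were called higher in siScr cells, and 3 in place of 6 lower in the average. At an adjusted p under 0.1, the Airn siRNA had 2 members called, both lower (2, Lama1 and Lama2), and the scrambled siRNA 21, of which 12 were higher and 9 lower, while the average had 11 lower. With an assumed error correlation of 0.3 the average called 11 members, 7 of them higher, and with -0.3 it called 11 lower. The list medians of both integrin classes kept their sign and moved by less than the median SE of their members in every planned setting: without Itga4, with means, with every row and centred. Of the single members called in siScr cells, Lamc3 lost its call when centred (adjusted p = 0.0549), and in the average centring ended the calls of Lamb1, Itgb2l and Lamc3. The cause of these shifts was not tested. No called member's most precise row changed sign under any setting run. Counting every row, the other Itgb1 row was called lower in the average, so that adherent-cell integrins called lower numbered 1 in place of 0, and the other Itgad row had the opposite sign in siScr cells. Signal over background was not available, so the part of dim transcripts in the values near 0 was not examined.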
